A study of Mus musculus with 19 samples.

Results

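A list of 10 transcription factor genes that direct dendritic cell lineages was followed across sorted type 1 conventional dendritic cells (DC1). They were Id2, Nfil3, Zbtb46, Bcl6, Zeb2, Tcf4, Spi1, Mycl, Klf4 and Cbfa2t3. The list was drawn up by name, with earlier results of these data known, and leaves out Irf8. Each gene was read from its brightest probe set carrying that single symbol. Among 22180 spleen genes, 9 of the 10 were found, because each spleen probe set for Zeb2 carries several symbols and was not used. Among 19938 genes of the skin-draining lymph node (SDLN) table, all 10 were found. Every one found, 9 and 10, was bright enough to be tested, so no member was lost to the filter on dim genes.

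The study profiled DC1 from C57Bl/6j mice with microarrays. Spleen DC1 came from female mice in 3 groups. They were Batf3-/- Irf8VENUS+ (3 arrays), WT Irf8VENUS+ (3 arrays) and WT Irf8VENUS- (2 arrays). Irf8VENUS is a fluorescent reporter of Irf8, the gene for the transcription factor that DC1 depend on most. SDLN DC1 were all Irf8VENUS+, in 4 groups. They were migratory Batf3-/- (3 arrays), migratory WT (2 arrays), resident Batf3-/- (3 arrays) and resident WT (3 arrays). Migratory cells were gated as MHCII high and CD11c intermediate and had travelled from the skin, whereas resident cells were gated as MHCII intermediate and CD11c high. Batf3-/- mice lack Batf3 in every cell, so a difference cannot be placed at one stage of DC1 development, and the cells profiled are those that still passed the DC1 gates. Levels are log2 array intensities, on which a difference of 1 means 2-fold, and the 2 tables use different array types and were never tested against each other. A gene was called where its limma p-value, adjusted by the Benjamini-Hochberg method over all genes tested, was under 0.05. Some counts at an unadjusted p under 0.05 are also given. The share of all genes at that cut was not counted, so those counts have no background. The labels do not tell whether replicate arrays are different mice, so the spread behind each p-value is that of the arrays and may be technical.

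Conventional DC divide into DC1, which rely on IRF8 and BATF3, and cDC2, which rely on other factors such as IRF4 and, in one subset, KLF4. Plasmacytoid DC (pDC) are set by the E protein TCF4 (also called E2-2), and ID2 blocks E proteins and so favours conventional DC. NFIL3 represses Zeb2, a gene needed for pDC and cDC2, while BCL6, a transcriptional repressor, supports DC1. Spi1 (PU.1), Zbtb46 and Mycl (L-Myc) are expressed more widely among DC.

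The targeted gene was checked first. Batf3 averaged 6.24 ± 0.90 in spleen Batf3-/- Irf8VENUS+ DC1, against 9.93 ± 0.42 in WT Irf8VENUS+ DC1 (SD, n = 3 each) and 9.56 ± 0.20 in WT Irf8VENUS- DC1 (SD, n = 2). In SDLN it averaged 6.02 ± 0.15 (SD, n = 3) in migratory Batf3-/- and 9.19 ± 0.06 (SD, n = 2) in migratory WT DC1. Resident cells had 5.74 ± 0.23 in Batf3-/- and 8.38 ± 0.23 in WT (SD, n = 3 each). The 17 DC1 markers measured in each table, such as Xcr1 and Tlr3, were all at or above the filter level (5.04 in spleen, 4.82 in SDLN) on every spleen WT and resident WT array. The 2 sets of 17 were not identical, as Clec9a was read in SDLN only. On migratory arrays 14 to 16 of the 17 were, in both genotypes. The spleen protocol lists CD172a as positive, yet Sirpa, which encodes CD172a, lay between 5.35 and 5.84 on the 8 spleen arrays, close to the filter level.

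Some arrays stood apart. On resident WT replicate 1, 14 of 17 tested cDC2 markers were at their highest among the 3 resident WT arrays, by a median of 1.03 over the mean of the other two, against -0.02 for all 11931 genes tested. Also highest there were 14 of 18 maturation and migration markers (median 0.66), 10 of 17 pDC markers (0.15) and 3 of 17 DC1 markers (-0.12). Of all genes tested 32.3% were highest on that array. Sirpa was 7.82 on that array and 5.31 and 5.67 on the others. The spread of values within an array also differed between groups. The SD of all log2 values was 2.07 to 2.16 on migratory Batf3-/- arrays and 1.96 to 2.03 on migratory WT arrays, against 2.16 to 2.23 on resident Batf3-/- and 2.21 to 2.22 on resident WT arrays. B cell markers (8 genes) summed to an intensity of 220 to 432 on migratory Batf3-/- and 472 to 576 on migratory WT arrays. They summed to 175 to 233 on resident Batf3-/- and 160 to 211 on resident WT arrays. T and NK cell markers (10 genes) summed to 379 to 774, 624 to 992, 383 to 793 and 350 to 393 in the same order of groups. The part of these differences in the results below was not tested, except where a value from another run is given. Those runs left out an array, took the array SD as a term or repeated the quantile normalization. In sorted bulk cells, fewer cells of a type and less RNA per cell cannot be told apart.

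More of the factors were called between migratory and resident cells than between genotypes. In WT SDLN DC1, migratory cells had more Id2 and less Bcl6, Spi1, Mycl, Klf4 and Cbfa2t3 than resident cells, 1 member higher and 5 lower among 10. Across all genes tested 49.2% were called in this comparison, 16% higher and 33.2% lower. In Batf3-/- SDLN DC1, migratory cells had more Id2 and Zeb2 and less Bcl6, Mycl and Klf4, 2 higher and 3 lower, where 36.6% of all genes were called, 14.1% higher and 22.6% lower. These backgrounds are so high that the number of members called does not set the list apart. The members' median difference was -0.61 in WT and -0.04 in Batf3-/- cells, against -0.16 and -0.02 over all genes. Ranges did not overlap for 6 of 10 members in WT (70.3% of all genes) and 4 of 10 in Batf3-/- cells (46.8%). The size of the changes ran from a 14.1-fold fall (Mycl, WT) to a 1.99-fold rise (Id2, WT).

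Between genotypes few of the factors were called. In spleen, Klf4 was the 1 member of 9 called, higher in Batf3-/- cells, with 0.738% of all genes called (0.435% higher and 0.303% lower). In resident SDLN DC1, Mycl was the 1 member of 10 called, lower in Batf3-/- cells, with 1.84% of all genes called (0.847% higher and 0.997% lower). In migratory SDLN DC1, Bcl6, Spi1 and Cbfa2t3 were called, all 3 higher in Batf3-/- cells, with 9.41% of all genes called (7.13% higher and 2.28% lower). Id2, Nfil3, Zbtb46, Zeb2 and Tcf4 were called in none of these comparisons. The members' median Batf3-/- minus WT difference was 0.17 in spleen, 0.06 in resident and 0.26 in migratory SDLN DC1, against -0.02, -0.01 and 0.10 over all genes. Ranges of the groups did not overlap for 2 of 9 members in spleen (12.7% of all genes), 1 of 10 in resident (19.8%) and 5 of 10 in migratory SDLN DC1 (36.6%).

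**Figure D1:**
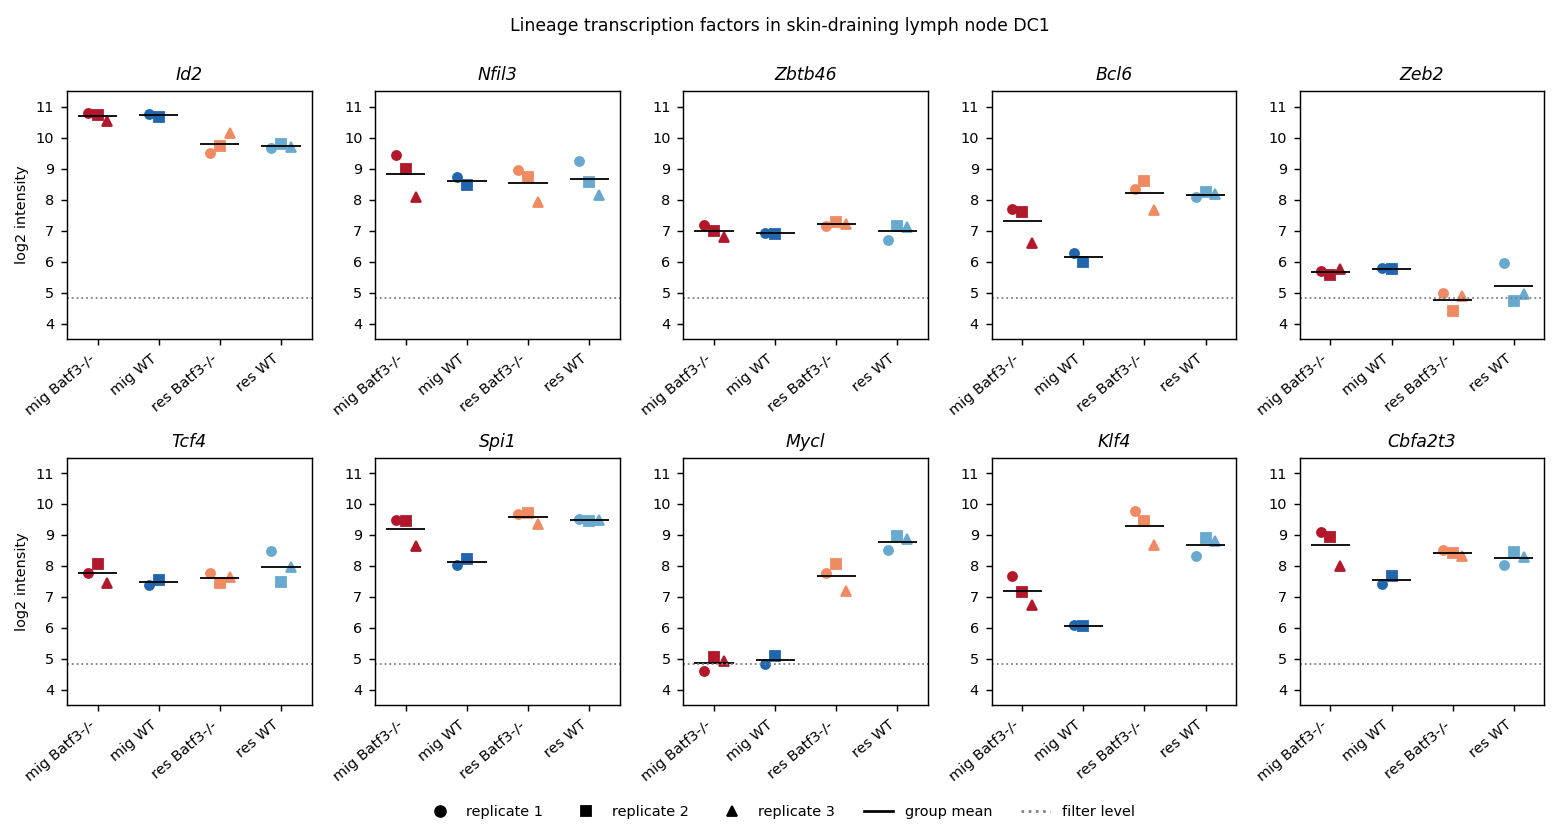
Log2 intensity of the 10 factors on each of the 11 SDLN arrays, by group (migratory Batf3-/-, migratory WT, resident Batf3-/-, resident WT), with symbols for replicate numbers, black bars for group means and a dotted line at the filter level of 4.82. Id2 was above 10.5 on all 5 migratory arrays and Mycl lay near the filter level there.

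Among the factors that favour DC1, Id2 rose with the migratory state. Id2 read 10.75 and 10.68 in migratory WT DC1, against 9.67, 9.78 and 9.71 in resident WT DC1. It read 10.78, 10.74 and 10.54 in migratory Batf3-/- DC1, against 9.50, 9.74 and 10.15 in resident Batf3-/- DC1. All 5 migratory arrays were above all 6 resident ones. The migratory minus resident difference was 1.00 ± 0.17 in WT (SE, limma adjusted p = 0.000593) and 0.89 ± 0.16 in Batf3-/- cells (adjusted p = 0.000682). Between genotypes Id2 did not pass the test, with a 95% interval of -0.41 to 0.35 in migratory and -0.26 to 0.42 in resident cells. The order of its levels had both migratory groups above both resident groups, with genotypes overlapping inside each pair.

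The 250 bases before the annotated Id2 start are printed because Id2 was the 1 member called higher in migratory cells of both genotypes. They lie at chr12:25096093-25096342 on the minus strand in GRCm38.p6 (RefSeq) and held none of the AP-1, ETS-IRF, interferon response or CACGTG motifs spelled out at the end, so nothing is in capitals:
Id2: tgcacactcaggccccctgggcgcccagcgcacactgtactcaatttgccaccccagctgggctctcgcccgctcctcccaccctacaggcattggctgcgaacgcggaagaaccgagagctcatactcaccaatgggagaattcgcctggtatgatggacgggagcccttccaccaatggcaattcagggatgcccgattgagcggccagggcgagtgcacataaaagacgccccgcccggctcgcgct

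In the same cells Bcl6 ran the other way. It read 6.28 and 5.98 in migratory WT DC1, against 8.07, 8.24 and 8.18 in resident WT DC1. It read 7.70, 7.61 and 6.60 in migratory Batf3-/- DC1, against 8.36, 8.59 and 7.67 in resident Batf3-/- DC1. The WT groups did not overlap, while the Batf3-/- groups did, by migratory replicate 1 against resident replicate 3. Bcl6 fell by 2.03 ± 0.33 in migratory WT cells (SE, limma adjusted p = 0.000339), a 4.09-fold difference, and the difference was -0.91 ± 0.29 in Batf3-/- cells (adjusted p = 0.0278). The Batf3-/- call was lost without resident replicate 1 (-0.83), resident replicate 2 (-0.71) or migratory replicate 3 (-0.56), at adjusted p of 0.0869, 0.123 and 0.0849.

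Migratory Batf3-/- DC1 held more Bcl6 than migratory WT DC1, all 3 arrays above both, by 1.17 ± 0.33 (SE, limma adjusted p = 0.0434). The same-numbered arrays differed by 1.42 and 1.63. In resident cells the genotype difference was 0.04, with a 95% interval of -0.59 to 0.68. The Bcl6 call between migratory genotypes was lost without any 1 of 4 of the 5 migratory arrays, at adjusted p from 0.130 to 0.155. It was kept without migratory Batf3-/- replicate 3, the array with the lowest Bcl6 of its group.

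Nfil3 was spread widely within groups and was called in no comparison. It read 9.45, 8.97 and 8.09 in migratory Batf3-/- DC1 and 8.74 and 8.48 in migratory WT DC1, then 8.96, 8.74 and 7.93 in resident Batf3-/- and 9.25, 8.56 and 8.14 in resident WT DC1. In every one of the 3 SDLN groups with 3 arrays, replicate 3 was the lowest, and all neighbouring groups overlapped. In spleen Nfil3 read 6.06, 6.38 and 7.47 in Batf3-/- Irf8VENUS+, against 7.16, 6.67 and 7.87 in WT Irf8VENUS+ and 6.52 and 7.23 in WT Irf8VENUS- DC1. Its spleen Batf3-/- minus WT Irf8VENUS+ difference was -0.60 ± 0.24 (SE, limma adjusted p = 0.428). Replicate 3 of both Irf8VENUS+ groups, sorted on CD24 alone, gave the highest Nfil3 value of its group.

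Spleen Id2 and Bcl6 did not separate the groups. Id2 read 10.79, 10.85 and 10.51 in Batf3-/- Irf8VENUS+, against 10.37, 10.77 and 10.37 in WT Irf8VENUS+ and 10.61 and 10.38 in WT Irf8VENUS- DC1. Bcl6 lay between 9.49 and 10.21 on the 8 arrays. The 95% interval of the Batf3-/- minus WT Irf8VENUS+ difference was -0.11 to 0.53 for Id2 and -0.26 to 0.60 for Bcl6.

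**Figure D2:**
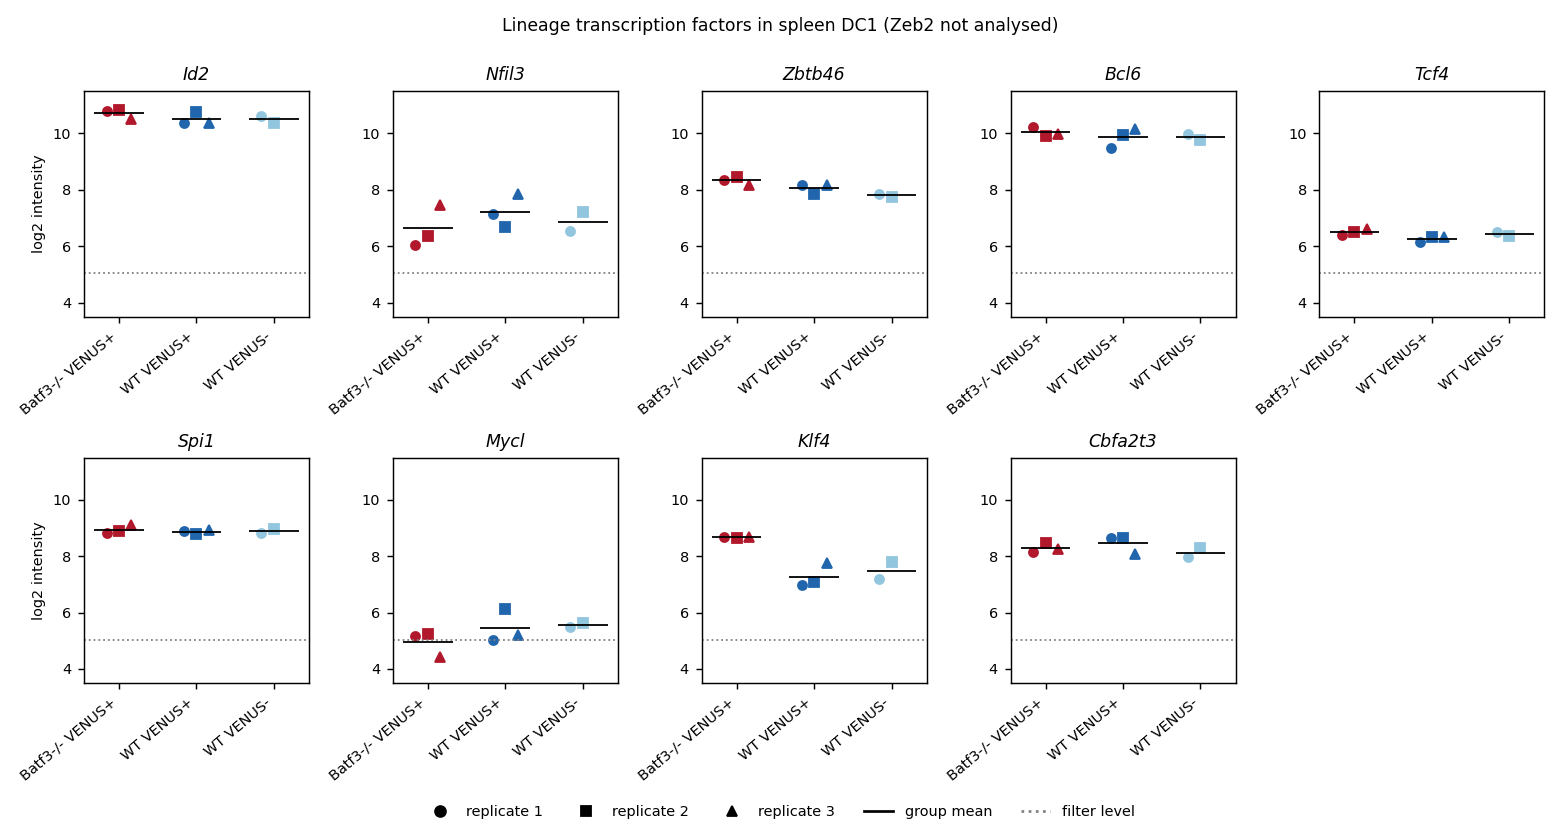
Log2 intensity of the 9 factors analysed on each of the 8 spleen arrays, by group (Batf3-/- Irf8VENUS+, WT Irf8VENUS+, WT Irf8VENUS-), with symbols for replicate numbers, black bars for group means and a dotted line at the filter level of 5.04. Klf4 was above 8.6 on the 3 Batf3-/- arrays and below 7.8 on the 5 WT arrays.

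Klf4, a zinc finger factor required for a subset of cDC2, was the 1 factor called between genotypes in spleen. Klf4 read 8.67, 8.63 and 8.69 in Batf3-/- Irf8VENUS+ DC1, against 6.97, 7.08 and 7.77 in WT Irf8VENUS+ and 7.20 and 7.78 in WT Irf8VENUS- DC1. The 3 Batf3-/- arrays had an SD of 0.03 and lay above all 5 WT arrays. Against WT Irf8VENUS+ cells the difference was 1.39 ± 0.22 (SE, limma adjusted p = 0.0378), a 2.62-fold rise. It was 1.63 among arrays sorted on CD24 and XCR1 (2 against 2) and 0.92 between the 2 arrays sorted on CD24 alone.

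Some limits stand beside the spleen Klf4 call. Without any 1 of 5 of the 6 arrays compared, its adjusted p was 0.0865 to 0.212, at differences of 1.31 to 1.63. Against WT Irf8VENUS- cells the difference was 1.04 ± 0.26 and was not called (adjusted p = 0.181). In the same spleen cells 0 of 16 tested cDC2 markers were called (5 at an unadjusted limma p under 0.05), at summed intensities of 3050 to 3494 in Batf3-/- Irf8VENUS+, against 2281 to 2839 in WT Irf8VENUS+ and 2986 to 3183 in WT Irf8VENUS- DC1. Maturation and migration markers (18 genes) summed to 10574 to 12001, against 6837 to 7793 and 9976 to 10800 in the same groups. The part of these lists in the Klf4 difference was not tested.

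The 250 bases before the annotated Klf4 start are printed because Klf4 was called in spleen and in both SDLN migration comparisons. They lie at chr4:55532476-55532725 on the minus strand in GRCm38.p6 (RefSeq), with the 1 CACGTG E-box in capitals, 182 bases before the start:
Klf4: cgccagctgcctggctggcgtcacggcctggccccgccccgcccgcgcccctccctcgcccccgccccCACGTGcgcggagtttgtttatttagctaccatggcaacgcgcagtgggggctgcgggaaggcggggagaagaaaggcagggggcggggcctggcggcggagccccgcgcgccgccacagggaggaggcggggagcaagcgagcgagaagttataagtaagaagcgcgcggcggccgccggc

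In SDLN, Klf4 was far lower in migratory DC1. It read 6.09 and 6.05 in migratory WT DC1, against 8.33, 8.91 and 8.82 in resident WT DC1. It read 7.66, 7.16 and 6.74 in migratory Batf3-/- DC1, against 9.77, 9.45 and 8.69 in resident Batf3-/- DC1. Neither pair overlapped. Klf4 fell by 2.61 ± 0.32 in migratory WT cells (SE, limma adjusted p = 5.14e-05), a 6.12-fold difference. In Batf3-/- cells the difference was -2.12 ± 0.29 (adjusted p = 0.000105), or 4.33-fold.

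Between genotypes Klf4 did not pass the test in either SDLN state. The Batf3-/- minus WT difference was 1.11 ± 0.32 in migratory cells (SE, limma adjusted p = 0.0505), with no overlap, and 0.62 ± 0.29 in resident cells (adjusted p = 0.540), where ranges overlapped. Without migratory Batf3-/- replicate 3 the migratory difference was 1.34 (adjusted p = 0.00970), and 6 of 15 alternatives called it. The order of Klf4 levels was resident Batf3-/-, resident WT, migratory Batf3-/-, migratory WT, and only the first 2 overlapped.

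Zeb2, a zinc finger repressor needed for pDC and cDC2, lay near the filter level and could be read only in SDLN. It read 5.70, 5.57 and 5.76 in migratory Batf3-/- DC1, against 4.98, 4.39 and 4.90 in resident Batf3-/- DC1, with no overlap. It read 5.79 and 5.76 in migratory WT DC1, against 5.97, 4.74 and 4.97 in resident WT DC1. The highest resident WT value was replicate 1, the array with high cDC2 and high maturation and migration markers. Zeb2 rose by 0.92 ± 0.26 in migratory Batf3-/- cells (SE, limma adjusted p = 0.0151), while the WT difference of 0.55 ± 0.29 was not called (adjusted p = 0.138). Without resident WT replicate 1 the WT difference was 0.92 ± 0.20 (adjusted p = 0.00350). The Batf3-/- call was lost without resident Batf3-/- replicate 2 (0.73, adjusted p = 0.0753). The difference between the 2 migratory minus resident values was 0.37 ± 0.39 and was not called (adjusted p = 0.638).

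Tcf4, the E protein that sets pDC, was called in no comparison. It read 7.79, 8.07 and 7.44 in migratory Batf3-/- and 7.40 and 7.55 in migratory WT DC1, then 7.79, 7.46 and 7.63 in resident Batf3-/- and 8.47, 7.50 and 7.96 in resident WT DC1. All 4 groups overlapped, and the highest value was again resident WT replicate 1. The migratory minus resident difference in WT was -0.51 ± 0.27 (SE, limma adjusted p = 0.137), and -0.26 without that array. Without resident WT replicate 2 in its place it was -0.75 and called (adjusted p = 0.0392). In spleen Tcf4 read 6.41, 6.49 and 6.62 in Batf3-/- Irf8VENUS+, against 6.14, 6.33 and 6.33 in WT Irf8VENUS+ DC1, a difference of 0.24 ± 0.14 (adjusted p = 0.617) with no overlap. The 2 WT Irf8VENUS- arrays read 6.49 and 6.37.

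Cbfa2t3 encodes ETO2, a corepressor that binds E proteins and represses Id2 in pDC. It read 9.09, 8.92 and 8.01 in migratory Batf3-/- DC1, against 7.43 and 7.68 in migratory WT DC1, with no overlap. Resident Batf3-/- arrays read 8.53, 8.43 and 8.33, and resident WT arrays read 8.04, 8.46 and 8.30. Migratory WT was the 1 group below the others. Cbfa2t3 was higher in migratory Batf3-/- than migratory WT cells by 1.12 ± 0.28 (SE, limma adjusted p = 0.0290), and the same-numbered arrays differed by 1.67 and 1.25. The call was lost without migratory WT replicate 1 (1.00), Batf3-/- replicate 1 (0.91) or Batf3-/- replicate 2 (1.00), at adjusted p of 0.187, 0.103 and 0.101.

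Cbfa2t3 fell by 0.71 ± 0.28 in migratory against resident WT cells (SE, limma adjusted p = 0.0483), a call at the threshold that was lost without any 1 of 4 of the 5 arrays. In Batf3-/- cells its migratory minus resident difference was 0.25 ± 0.25 (adjusted p = 0.474). Without migratory Batf3-/- replicate 3, the lowest Cbfa2t3 array of its group, it was 0.58 and called (adjusted p = 0.0142). A second, dimmer SDLN probe set for Cbfa2t3 read 8.86, 8.33 and 7.05 in migratory Batf3-/- and 6.93 and 7.04 in migratory WT DC1, so the lowest Batf3-/- value nearly met the highest WT value. In spleen Cbfa2t3 lay between 7.96 and 8.64 on all 8 arrays and was called in no comparison.

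**Figure D3:**
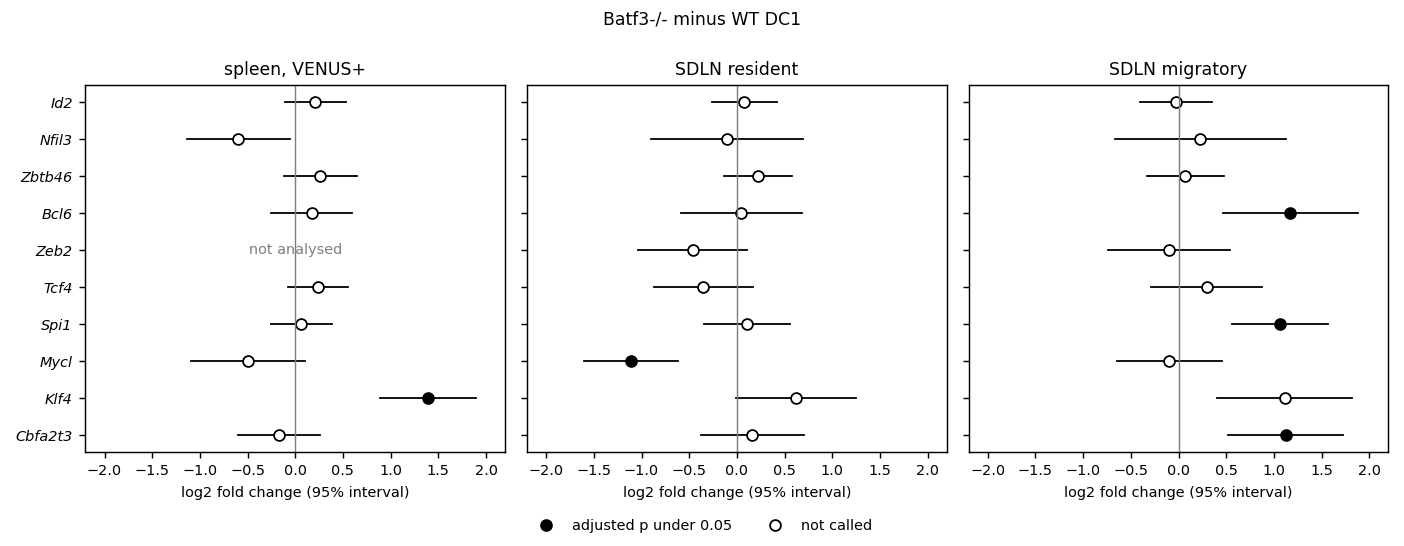
Batf3-/- minus WT log2 fold changes of the factors with 95% intervals in spleen Irf8VENUS+, resident SDLN and migratory SDLN DC1, where filled points have an adjusted p under 0.05. Klf4 was called in spleen, Mycl in resident cells and Bcl6, Spi1 and Cbfa2t3 in migratory cells.

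Mycl, which encodes the MYC family factor L-Myc that supports DC proliferation, changed most. It read 4.62, 5.06 and 4.94 in migratory Batf3-/- and 4.83 and 5.11 in migratory WT DC1. It read 7.77, 8.06 and 7.18 in resident Batf3-/- and 8.51, 8.97 and 8.86 in resident WT DC1. Migratory values lay near the filter level of 4.82, so the folds between states may understate the difference. Mycl fell by 3.81 ± 0.25 in migratory WT cells (SE, limma adjusted p = 5.95e-07), a 14.1-fold difference, and the difference was -2.80 ± 0.23 in Batf3-/- cells (adjusted p = 1.53e-06), or 6.96-fold. Both calls were kept under each alternative run.

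In resident DC1, Mycl was also lower without Batf3. All 3 Batf3-/- arrays were below all 3 WT arrays, and the difference was -1.11 ± 0.23 (SE, limma adjusted p = 0.0256), a 2.16-fold fall. The same-numbered arrays differed by -0.74, -0.91 and -1.69. The call was lost without any 1 of 4 of the 6 arrays, at adjusted p of 0.0703 to 0.138 and differences of -1.16 to -0.86. It was kept without resident WT replicate 1 (-1.25, adjusted p = 0.0317). Of 18 maturation and migration markers tested, 3 were called in the same cells, all higher in Batf3-/-, the chemokine genes Ccl17 (1.999) and Ccl22 (1.74) and the chemokine receptor gene Ccr7 (1.62). The list (19 genes) summed to 5616 to 9203 in resident Batf3-/-, against 4060 to 5396 in resident WT DC1, and its part in the Mycl difference was not tested. In migratory cells, where both genotypes were near the filter level, the difference was -0.10, with a 95% interval of -0.64 to 0.45.

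Spleen Mycl was also near the filter level, 5.04 there. It read 5.18, 5.25 and 4.44 in Batf3-/- Irf8VENUS+, against 5.03, 6.13 and 5.19 in WT Irf8VENUS+ and 5.50 and 5.64 in WT Irf8VENUS- DC1. The Batf3-/- minus WT Irf8VENUS+ difference was -0.50 ± 0.26 (SE, limma adjusted p = 0.572). Without WT Irf8VENUS+ replicate 1 it was -0.85 and called (adjusted p = 0.0439).

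Spi1, which encodes the ETS factor PU.1, followed Bcl6 in SDLN at a smaller size. It read 9.48, 9.44 and 8.66 in migratory Batf3-/- DC1, against 8.03 and 8.24 in migratory WT DC1. Resident arrays lay between 9.36 and 9.72 in Batf3-/- and between 9.44 and 9.52 in WT DC1. Migratory WT was the group set apart, with no overlap with any other. Spi1 fell by 1.34 ± 0.23 in migratory against resident WT cells (SE, limma adjusted p = 0.000563), and was higher in migratory Batf3-/- than migratory WT cells by 1.06 ± 0.23 (adjusted p = 0.0196). Same-numbered migratory arrays differed between genotypes by 1.45 and 1.20 for Spi1. The Spi1 genotype call was lost without migratory WT replicate 1 (0.96), Batf3-/- replicate 1 (0.92) or Batf3-/- replicate 2 (0.94), at adjusted p of 0.147, 0.0763 and 0.0744. In Batf3-/- cells the migratory minus resident difference of -0.39 ± 0.21 was not called (adjusted p = 0.164). In spleen Spi1 lay between 8.78 and 9.10 on all 8 arrays, and the 95% interval of the Batf3-/- minus WT Irf8VENUS+ difference was -0.26 to 0.38.

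Zbtb46, a zinc finger gene that marks conventional DC, was called in no comparison. It read 7.17, 7.00 and 6.78 in migratory Batf3-/- and 6.93 and 6.90 in migratory WT DC1, then 7.13, 7.29 and 7.21 in resident Batf3-/- and 6.70, 7.16 and 7.11 in resident WT DC1. Groups next to each other in level overlapped, while migratory WT lay wholly below resident Batf3-/- cells. In spleen it read 8.36, 8.46 and 8.18 in Batf3-/- Irf8VENUS+, against 8.19, 7.87 and 8.16 in WT Irf8VENUS+ and 7.86 and 7.74 in WT Irf8VENUS- DC1. The difference against WT Irf8VENUS- cells was 0.55 ± 0.20 (SE, limma adjusted p = 0.415), with no overlap.

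**Figure D4:**
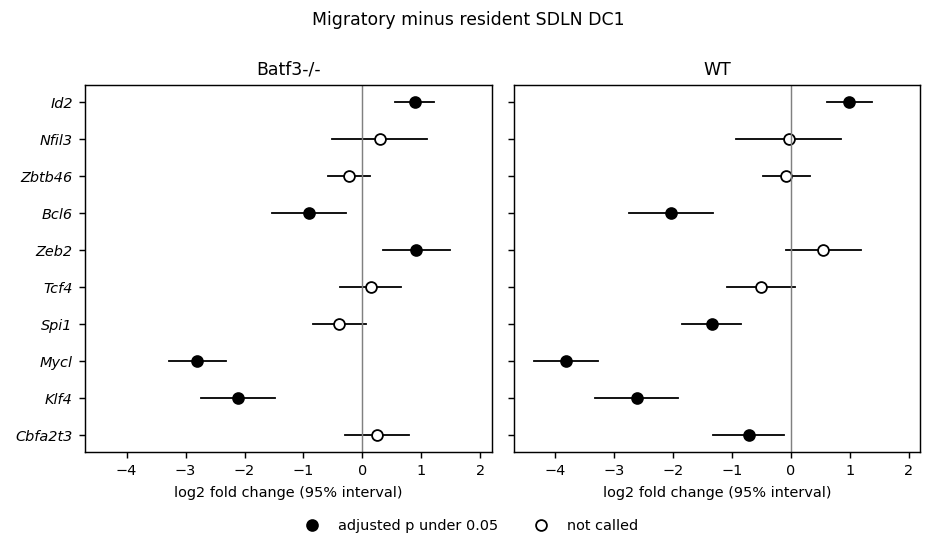
Migratory minus resident log2 fold changes of the 10 factors with 95% intervals in Batf3-/- and WT SDLN DC1, where filled points have an adjusted p under 0.05. Mycl, Klf4 and Bcl6 were called lower and Id2 higher in both genotypes.

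No member was called between WT Irf8VENUS+ and WT Irf8VENUS- spleen DC1, and Irf8 itself was not called there either. A second, dimmer spleen probe set for Irf8 (mean 10.80) was not used for the values below. Irf8 was higher in WT Irf8VENUS+ than WT Irf8VENUS- spleen DC1 by 0.83 ± 0.10 (SE, limma adjusted p = 0.0601). Its ranges did not overlap, and that difference was not called. Against the same WT Irf8VENUS- cells, Irf8 was called higher in Batf3-/- Irf8VENUS+ DC1, by 0.66 ± 0.10 (adjusted p = 0.0326). Between WT Irf8VENUS+ and WT Irf8VENUS- spleen DC1, 0 of 9 members were called, with 0.0233% of all genes called (0.0155% higher and 0.00777% lower). At an unadjusted p under 0.05 limma also gave 0 members. Ranges did not overlap for Zbtb46 and Tcf4, 2 of 9 members against 24.9% of all genes. The largest member differences were 0.43 ± 0.22 for Cbfa2t3 and -0.35 ± 0.26 for Klf4 (SE), from a fit with the sort gate as a term. Between Batf3-/- Irf8VENUS+ and WT Irf8VENUS- DC1, 0 of 9 members were called, with 0.559% of all genes called (0.28% in each direction), and 2 members, Zbtb46 and Klf4, had an unadjusted p under 0.05 (0.0227 and 0.00359). Ranges did not overlap for Zbtb46, Mycl and Klf4 in that comparison, against 26.9% of all genes. These spleen comparisons share arrays and are not independent.

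Whether the Batf3 difference itself changed between states was tested as an interaction, migratory minus resident. None of the 10 members was called by limma, with 1.24% of all genes called (0.721% higher and 0.52% lower), and 4 members had an unadjusted p under 0.05. They were Bcl6 at 1.13 ± 0.44 (SE, adjusted p = 0.194), Spi1 at 0.95 ± 0.31 (0.137), Mycl at 1.02 ± 0.34 (0.142) and Cbfa2t3 at 0.96 ± 0.37 (0.192). The share of all genes at the unadjusted cut was not counted, so whether 4 of 10 exceeds it is not known. The calls for Bcl6, Spi1 and Cbfa2t3 in migratory cells alone, and for Mycl in resident cells alone, are not shown to differ between states. Without migratory Batf3-/- replicate 3, Bcl6 (1.48), Spi1 (1.22) and Cbfa2t3 (1.30) were called, at adjusted p of 0.0164, 0.00624 and 0.00798. For scale, Irf8 itself, which is not a member, was called at 1.38 ± 0.28 (adjusted p = 0.0402).

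The spread of array values moved with several of these differences. Migratory WT arrays had the smallest SD (1.96 and 2.03) and the lowest Bcl6, Spi1, Cbfa2t3 and Klf4, and migratory Batf3-/- replicate 3 (2.07) came next in SD and was the lowest of its group for all 4. With the array SD as a term in the fit, the migratory Batf3-/- minus WT difference was 0.07 for Bcl6, 0.20 for Spi1, 0.16 for Cbfa2t3 and 0.12 for Klf4, and none was called. Between states in WT, the same fit called Mycl alone (-2.98, adjusted p = 0.00992), while Bcl6 was -0.22, Klf4 -0.97 and Id2 0.80, and Spi1 (0.08) and Cbfa2t3 (0.87) turned positive. In Batf3-/- cells it still called Mycl (-2.52), Klf4 (-1.57) and Id2 (0.82), gained Cbfa2t3 (0.77, adjusted p = 0.0171) and lost Bcl6 (-0.31) and Zeb2 (0.71). The resident Mycl difference between genotypes was -1.06 with that term (adjusted p = 0.0155). In a separate run quantile normalization was repeated over all SDLN arrays, which gives them the same spread. The only SDLN member call that changed in that run was Cbfa2t3 between states in WT, lost at -0.37 ± 0.24 (SE, limma adjusted p = 0.226). The SD did not overlap between states in either genotype or between migratory genotypes, so array spread cannot be told apart from state or from genotype in these 3 comparisons. In Batf3-/- cells the highest migratory and lowest resident SD both rounded to 2.16.

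**Figure D5:**
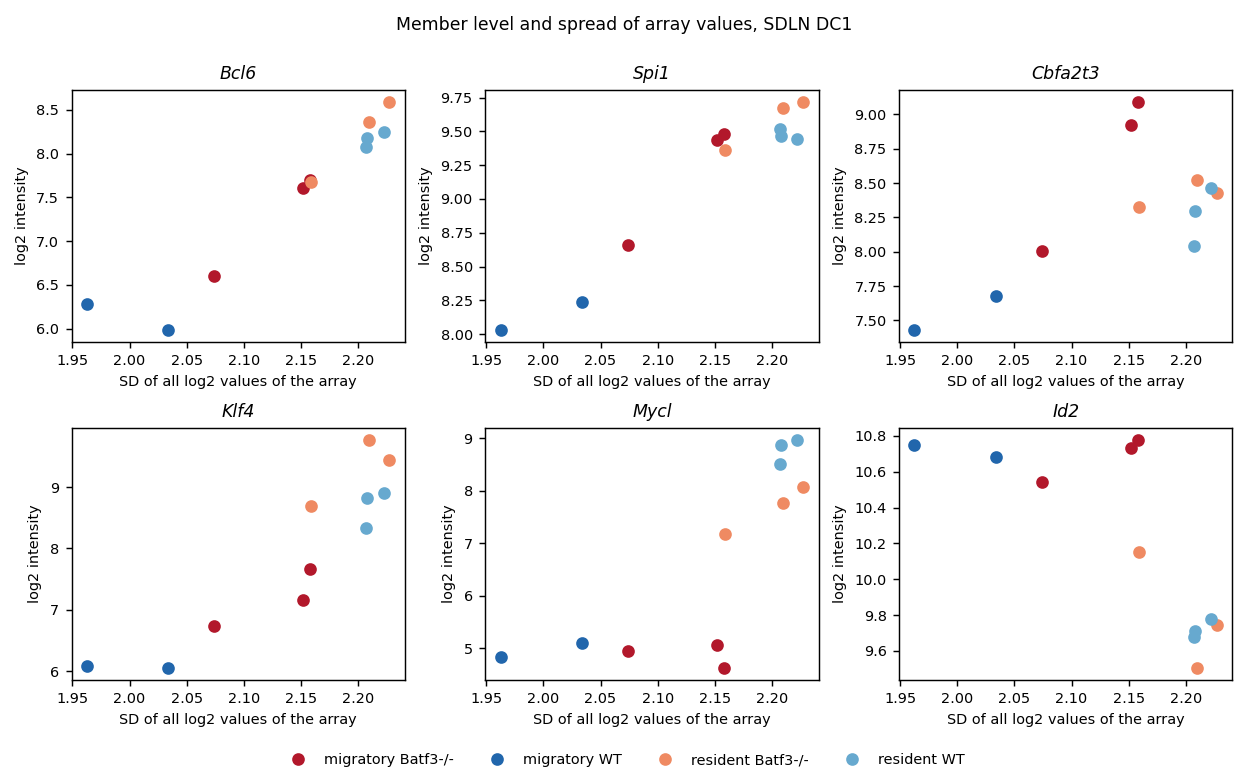
Log2 intensity of 6 factors on the 11 SDLN arrays (y axis) against the SD of all log2 values of the array (x axis), coloured by group. Bcl6, Spi1, Cbfa2t3 and Klf4 were lowest on the 2 migratory WT arrays, which had the smallest SD, while Mycl was low on all 5 migratory arrays at any SD.

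Family members, partners and other lineage factors of these genes, a list of 66, gave a wider view. This list was also chosen with earlier results of these data known, so its shares are not independent evidence. In spleen 0 of 51 tested were called by limma in any of the 3 comparisons. At an unadjusted p under 0.05 there were 10 between Batf3-/- and WT Irf8VENUS+, 7 between Batf3-/- Irf8VENUS+ and WT Irf8VENUS- and 6 between WT Irf8VENUS+ and WT Irf8VENUS- cells. The share of all genes at that cut was not counted. In resident SDLN DC1, 1 of 57 was called between genotypes. It was Zbtb16 (PLZF, a BTB zinc finger factor), higher in Batf3-/- cells by 2.12 ± 0.40 (SE, limma adjusted p = 0.0178). In migratory DC1, 10 of 57 were higher and 0 lower in Batf3-/- cells, against 7.13% and 2.28% of all genes. They included Zeb1, the paralog of Zeb2 (1.40), Prdm1, encoding the repressor BLIMP1 (1.16), the NF-kB subunit gene Relb (1.13) and Runx1 (1.07). The list's median was 0.36 against 0.10 over all genes.

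Between states members of the same list were called in both directions, at shares near those of all genes in WT cells. In WT cells 9 of 57 were higher and 18 lower in migratory DC1, against 16% and 33.2% of all genes, led by the nuclear receptor gene Nr4a1 (-3.13), Notch2 (-3.12), Irf7 (-2.52) and Mxd1, a MYC antagonist (2.52). In Batf3-/- cells 12 were higher and 15 lower, against 14.1% and 22.6% of all genes, led by Mxd1 (2.98), the homeobox gene Hhex (-2.79), Nr4a1 (-2.70) and Spic, an ETS relative of Spi1 (2.67). None of the 57 was called by limma in the interaction, and 15 had an unadjusted p under 0.05, a cut at which all genes were not counted.

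The marker lists of the 3 DC fates moved as follows. Of 17 DC1 markers tested, 5 were lower and 0 higher in Batf3-/- than WT Irf8VENUS+ spleen DC1, 6 and 0 in resident SDLN DC1, and 7 and 1 in migratory SDLN DC1. Over all genes 0.303% were lower in spleen, 0.997% in resident and 2.28% in migratory Batf3-/- cells, and 0.435%, 0.847% and 7.13% were higher, which is the background for the cDC2 and pDC counts too. The lists were chosen with earlier results of these data known, so shares above that background are not independent evidence. The DC1 markers called lower included Itga8 (-3.30 in spleen and -2.95 in resident cells), Gcsam (-3.03 in resident cells) and Xcr1 (-1.85 in migratory cells). Of the cDC2 markers, 0 of 16 were called in spleen. In resident SDLN DC1, 2 of 17 were higher, the lectin genes Clec10a (2.42) and Mgl2 (1.38), and 1 lower, Clec12a (-0.88). In migratory SDLN DC1, Clec12a (-1.90) was the 1 cDC2 marker called. Of the pDC markers, Lag3 (1.91) and Cybb (1.56) were higher in spleen, 0 of 17 were called in resident SDLN DC1 (4 at an unadjusted p under 0.05), and Upb1 (1.28) and Tlr9 (0.90) were higher and Ly6d (-1.70) lower in migratory SDLN DC1. Of 6 B cell markers tested in that comparison, 1 was called, Ms4a1 (-1.30). In migratory over resident WT cells Ly6d was higher by 2.70, beside the B cell markers Ms4a1 (2.11) and Cd79a (1.94). The part of B cells in the Ly6d differences was not tested. All 17 DC1 markers were lower in migratory WT and 16 of 17 in migratory Batf3-/- than in resident cells, where 33.2% and 22.6% of all genes were lower.

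Other genes ran alongside the members that moved. Likeness was the root mean square difference between a gene and a member, each centred on its own mean, over the 11 SDLN arrays, which share groups, normalization and array spread. Mycl was most like Itgal (0.25), Tifab (0.31) and Unc119b (0.32), where the median gene stood at 1.69. Klf4 was most like Aldh2 (0.22), Septin6 (0.27) and Dpysl2 (0.31), against a median of 1.21. Bcl6 was most like Otub1 (0.14), Furin (0.18) and Git2 (0.18), against 0.83, and Spi1 was most like Khdrbs1 (0.10), Csnk1d (0.11) and R3hdm4 (0.11), against 0.59. Cbfa2t3 was most like Cd2bp2 (0.11), Zzef1 (0.14) and Med13l (0.15), against 0.55, and Zeb2 was most like Ccl9 (0.24), Slc26a2 (0.28) and Rps27l (0.28), against 0.63. Over the 8 spleen arrays Klf4 was most like Ms4a4c (0.19), Chka (0.23) and Apobec1 (0.24), against 0.73.

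Promoters in RefSeq were matched for 8 of the 10 members. The letters TGANTCA (AP-1, the site class that BATF3 binds with JUN), GGAA and GAAA with any 2 bases between them (ETS-IRF composite), GAAA and GAAA with any 2 bases between them (interferon response) and CACGTG (E-box) were searched on both strands in the 250 bases before each start. They occur in 6.75%, 2.3%, 2.98% and 6.02% of 32851 such windows. TGANTCA was found before one Zeb2 start, at -189 and -132, and before the only Zbtb46 start matched, at -61. That Zbtb46 window (chr2:181424389-181424638, minus strand) lies inside the annotated gene, which spans 181371009 to 181493262. The bases before the outermost Zbtb46 end were not searched. CACGTG was found before Klf4 at -182, as in the sequence above, and before one Bcl6 start at -60, and the ETS-IRF composite before another Bcl6 start at -28. The shorter ETS core GGAA, part of that composite, was also searched and occurs in 93.45% of windows. The first 4 motifs were not found before Id2, Mycl, Nfil3 or Cbfa2t3. The Zeb2 window with TGANTCA (chr2:45110278-45110527) also lies inside its annotated gene, 44983512 to 45117442. So does the Bcl6 window with the ETS-IRF composite (chr16:23981284-23981533), in a gene spanning 23965050 to 23988866. A match describes letters only.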

How the data were processed

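Array intensities were measured in 8 spleen and 11 SDLN samples of sorted mouse DC1. RMA (background correction, quantile normalization and summary of probes) was run by the authors, per the submitters' processing notes, and its version and the genome build are not given in the sources used here. The deposited spleen values are intensities on a linear scale and log2 was taken. The deposited SDLN values are on a log2 scale. The number of arrays limits the precision, and neither table gives background per probe.

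Gene symbols came from the annotation of each platform, updated through RefSeq. For spleen, 23521 of 41345 probe sets had 1 symbol, 1814 several and 16010 none. For SDLN, 21789 of 35556 had 1 symbol, 1621 several and 12146 none. Gene identifiers of 23328 and 21698 probe sets with 1 symbol matched RefSeq. A gene was tested where at least 2 arrays reached the median of its table, which left 12875 and 11931 genes. Tests were two-sided and used R 4.3.3 with limma 3.58.1, where eBayes took a trend of variance with mean level. Adjustment was Benjamini-Hochberg over all genes tested, and all arrays of a table shared 1 spread. For spleen a term for the sort was added. It separates the replicate 3 arrays of the Irf8VENUS+ groups (CD24 alone) from the rest (CD24 and XCR1). The fit was run on simulated data with known changes and independent noise per value. Those data held no difference in array spread, title code or cell mixture, so the run does not bear on these limits.

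SDLN titles carry a code shared by same-numbered arrays, whose meaning the labels do not give. Differences between same-numbered arrays are printed beside the SDLN calls between genotypes, and not beside the calls between states. The members and gene lists were chosen with earlier results of these data known. The 10 members were named in every comparison, with up to 4 called genes of largest change per list and the 3 genes most like a member whose group means span at least 1. Coordinates and promoters are RefSeq's on GRCm38.p6.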

Additional observations from a re-analysis of the deposited data

How the results depend on the processing

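Of 1261 member values under other settings, 1195 kept their status, whether called or not called. Of the rest, 44 lost a call, 20 gained one and 2 reversed in sign. Most members were not called to begin with, so the 1195 do not measure how stable the calls are. Among values uncalled in both fits, counted as kept, 68 changed sign. The settings were other filters, normalization, array weights, only the groups compared, no variance trend, the mean of probe sets, the array SD or replicate number as a term, sort gate choices and each array left out. The reversed values were Spi1 (0.0797) and Cbfa2t3 (0.874) between migratory and resident WT cells, with the array SD as a term. That term left 1 of 6 members called in that comparison and 0 of 3 between migratory genotypes. Only the groups compared left 0 of 3 there, and 0 of 1 in spleen between Batf3-/- and WT Irf8VENUS+ cells, where arrays sorted on CD24 and XCR1 alone also left 0. Array weights gave 2 members in place of 1 between resident genotypes and 3 in place of 0 in the interaction. Leaving out each array gave 0 to 2 members in spleen, 0 to 1 between resident and 0 to 4 between migratory genotypes, 5 to 7 between states in WT, 3 to 5 in Batf3-/- and 0 to 3 in the interaction. The cause was not tested.

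Same-numbered SDLN arrays correlated in their deviations from group means over 0.1 in 7 of 15 pairs (median 0.10) and differently numbered arrays in 7 of 30 (median -0.03), so the rule that every such pair be over 0.1 was not met, nor did every array correlate best with its own number. Same-numbered migratory and resident arrays of a genotype correlated at 0.15 and 0.10 in WT and at 0.42, 0.21 and 0.48 in Batf3-/- cells. Same-numbered arrays of different genotypes correlated at -0.16 to 0.25. The main tests between states took no account of the numbers. The labels do not say what a number marks, and whether the numbers pair the arrays is not known. With the replicate block, 1 member was called in the interaction in place of 0 (Spi1, 1.08, adjusted p = 0.0459), and Klf4 was called between migratory genotypes (1.27, adjusted p = 0.0158). Bcl6 between states in Batf3-/- cells stayed called with the block (-0.91, limma adjusted p = 0.00727). In spleen, where 2 of 7 same-numbered pairs were over 0.1, the replicate block in place of the sort gate left 0 of 1 called (Klf4 1.39, adjusted p = 0.0566).

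All genes called ranged under these settings, against the main counts, from 24 to 262 (95) in spleen between Batf3-/- and WT Irf8VENUS+ cells, 0 to 18 (3) between WT Irf8VENUS+ and WT Irf8VENUS- cells and 6 to 164 (72) between Batf3-/- Irf8VENUS+ and WT Irf8VENUS- cells. In SDLN they ranged from 95 to 981 (220) between resident and 7 to 3560 (1123) between migratory genotypes, 1263 to 8873 (5870) between states in WT, 3445 to 5350 (4371) in Batf3-/- and 17 to 1716 (148) in the interaction.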
